A study of Camelus dromedarius with 10 samples.

Results

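SPP1, the gene of osteopontin, and LAMB3, the gene of the laminin beta 3 chain, were followed in the supraoptic nucleus (SON) of the dromedary camel under water deprivation (WD). They are 2 of the 22444 Ensembl gene IDs that were counted, ENSCDRG00005007782 for SPP1 and ENSCDRG00005007050 for LAMB3, and each is the only ID paired with its symbol in the study's gene tables. Both genes were chosen for their difference between control and WD in these same libraries. Their levels are therefore given as a description, and no test of that difference is made for either gene.

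Osteopontin is a secreted phosphoprotein of the SIBLING family that binds cells through integrins and CD44, and in the brain it is known above all as a product of microglia and macrophages. The laminin beta 3 chain joins an alpha and a gamma chain to form the trimer laminin-332. This trimer anchors epithelia to their basement membrane through integrins that contain ITGA6 with ITGB4 or ITGA3 with ITGB1, while the basement membranes of brain vessels are built mainly from other laminins. The SON holds the magnocellular neurons that make vasopressin and oxytocin, and water deprivation is the classical stimulus to them.

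RNA was depleted of ribosomal RNA and sequenced from punches of the rostral SON, taken on one side of the brain. All camels were males aged 4 to 5 years, and each library came from 1 animal. The 5 control camels had food and water freely, and the 5 WD camels had food but were given no water for 20 days. Libraries are named by condition and label number as CON2, CON3, CON4, CON5 and CON13 and as WD6, WD7, WD8, WD9 and WD15, and CON13 was a repeat sample of a control camel whose other sample was not used.

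Total counts ran from 1665098 in CON13 to 8126641 in WD9, but much of this depth went to 5 dominant gene IDs, whose share was lowest in WD9, at 27.7%, and highest in CON13, at 76.1%. Outside these IDs, CON13 held 397495 counts and WD6 held 1106575, while the other 8 libraries held between 2078393 and 5872137. Of the 5 magnocellular markers listed, OTP and SIM1 were paired with an ID, and both were counted in every library, at 17.9 to 53.9 CPM (counts per 1000000 of a library) for OTP and at 42.5 to 103 CPM for SIM1. OTP stood at 39.5 ± 11.98 CPM in control and 25.7 ± 7.24 CPM in WD (SD, n = 5 each), a log2 fold change of -0.58 (SE 0.24, unadjusted p = 0.0255 and adjusted p = 0.454 by edgeR), and SIM1 had a log2 fold change of -0.04 (SE 0.22). AVP, OXT and POU3F2 were not analysed here. Levels are CPM after TMM normalization, and because no gene lengths were used, they are compared between libraries and not between genes. In tissue punches, a change in the number of cells that express a gene and a change in its RNA per cell cannot be told apart.

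SPP1 was 2.34-fold higher in WD, and every WD library lay above every control library. The control libraries held 79.0 CPM in CON2, 79.2 in CON3, 55.9 in CON4, 95.7 in CON5 and 35.9 in CON13. The WD libraries held 98.7 CPM in WD6, 171 in WD7, 172 in WD8, 230 in WD9 and 151 in WD15. The highest control and the lowest WD library thus nearly met, whereas the other 4 WD libraries stood well above all controls. Mean levels were 69.1 ± 23.4 CPM in control and 164 ± 47.1 CPM in WD (SD, n = 5 each), a log2 fold change of 1.23 (SE 0.24). Groups that do not overlap were found for 2.62% of the 14432 genes tested, 1.34% with WD the higher and 1.27% with WD the lower, and nothing is read from SPP1 standing among them because it was chosen on this contrast.

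SPP1 had 7927 counts in all, so its levels were mostly well counted. The exception was CON13, whose level rests on 30 counts with an exact Poisson 95% interval of 24.2 to 51.2 CPM. In CON5, 654 counts gave an interval of 88.5 to 103 CPM, and in WD6, 208 counts gave 85.7 to 113 CPM, so these neighbours across the groups did not differ beyond counting error. In WD9, the highest library, 2659 counts gave 221 to 239 CPM, clear of the next library, WD8, at 162 to 182 CPM. Such intervals cover counting error only.

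LAMB3 moved the other way and was 1.97-fold lower in WD. The control libraries held 36.7 CPM in CON2, 37.4 in CON3, 39.6 in CON4, 23.1 in CON5 and 50.2 in CON13. The WD libraries held 26.6 CPM in WD6, 19.9 in WD7, 21.0 in WD8, 17.7 in WD9 and 8.75 in WD15. The groups overlapped in a single place, where CON5 lay below WD6, so that WD was the lower in 24 of the 25 pairs of a control with a WD library. Means were 37.4 ± 9.66 CPM in control and 18.8 ± 6.50 CPM in WD (SD, n = 5 each), a log2 fold change of -0.98 (SE 0.26).

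LAMB3 was the more thinly counted of the pair, with 1471 counts in all. Its extremes rest on 42 counts each, in CON13, where the 95% interval was 36.2 to 67.9 CPM, and in WD15, where it was 6.31 to 11.8 CPM. The interval of WD15 lay below those of all other libraries. The intervals of CON5, 19.7 to 27.0 CPM, and of WD6, 20.1 to 34.5 CPM, overlapped each other and those of WD7, WD8 and WD9, and that of WD6 also reached those of CON2 and CON3.

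**Figure D1:**
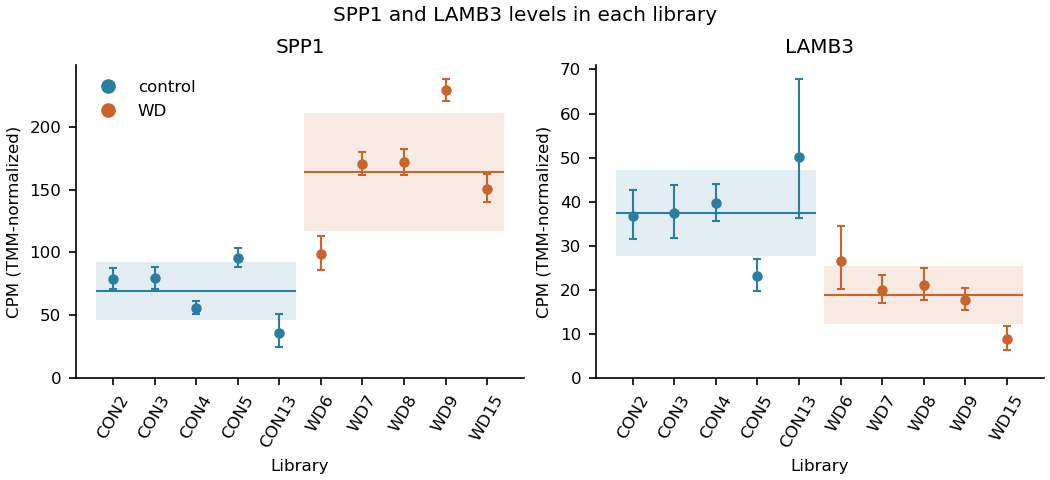
CPM of SPP1 and LAMB3 in each library (points, blue for control and orange for WD), with exact Poisson 95% intervals as bars, and the mean (line) and SD (band) of each group of 5. SPP1 did not overlap between the groups, while LAMB3 was lower in WD with CON5 at 23.1 CPM below WD6 at 26.6 CPM.

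The ratio of SPP1 to LAMB3 counts within a library does not depend on how libraries are scaled. It was 2.15 in CON2, 2.12 in CON3, 1.41 in CON4, 4.14 in CON5 and 0.714 in CON13, so that CON13 was the only library with more LAMB3 than SPP1 counts. In WD it was 3.71 in WD6, 8.59 in WD7, 8.18 in WD8, 12.97 in WD9 and 17.2 in WD15. The mean log2 ratio, with 0.5 added to each count, was 0.85 ± 0.93 in control and 3.16 ± 0.84 in WD (SD, n = 5 each), a difference of 2.31. Only CON5 and WD6 crossed, and they are also the libraries at which the groups met or crossed in each gene alone.

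The scaling bears on these group boundaries. As CPM of all counts, with the dominant IDs included and no TMM factors, SPP1 was at 49.2 in WD6 and so below 4 of the 5 controls, which ran from 18.0 to 95.4, and WD was the higher in 21 of 25 pairs. On that scale LAMB3 was the lower in WD in 19 of 25 pairs. As CPM of the counts outside the dominant IDs, the pairs were split as with TMM, 25 of 25 for SPP1 and 24 of 25 for LAMB3, with SPP1 at 187 in CON5 and 188 in WD6.

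**Figure D2:**
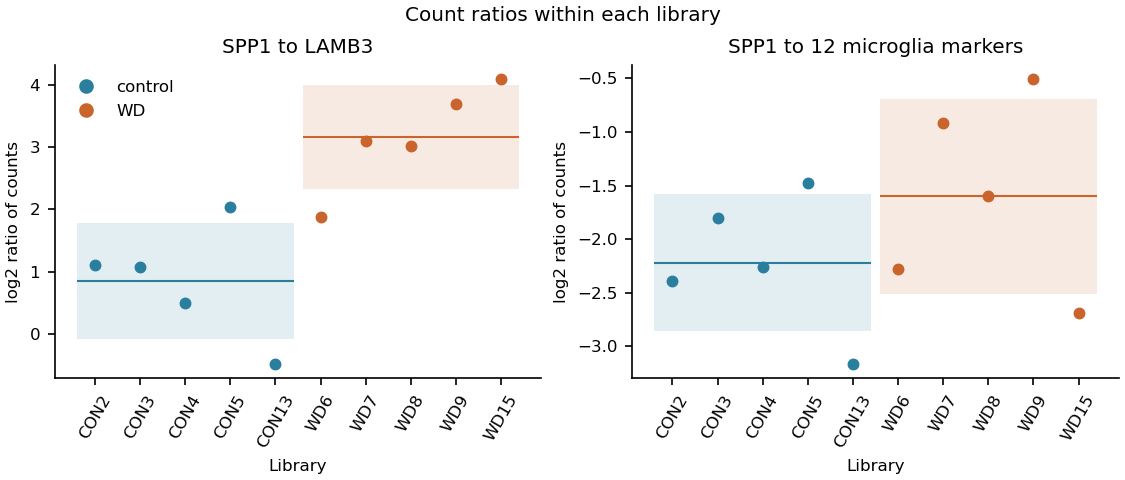
Log2 ratio of SPP1 to LAMB3 counts (left) and of SPP1 counts to the summed counts of 12 microglia markers (right) in each library, with 0.5 added to each count, and the mean (line) and SD (band) of each group of 5. The first ratio differed by 2.31 between the group means with CON5 and WD6 crossing, and the second by 0.62 with overlapping groups.

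Among WD libraries, SPP1 went with depth, taken as the counts outside the dominant IDs. In WD, the shallowest library, WD6, had the lowest SPP1 level and the deepest, WD9, the highest, and the other 3 lay between both in depth and in level. In control, the shallowest library, CON13, also had the lowest level, but the deepest, CON4, had the next lowest. With log2 depth as a covariate in the edgeR fit, which was added after these values were seen, the log2 fold change of SPP1 was 1.05 (SE 0.18) and that of LAMB3 was -0.89 (SE 0.23). Without CON13 and WD6 together, they were 1.21 and -1.02, beside 1.23 and -0.98 over all 10 libraries. The part of depth in the SPP1 and LAMB3 differences was not tested.

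**Figure D3:**
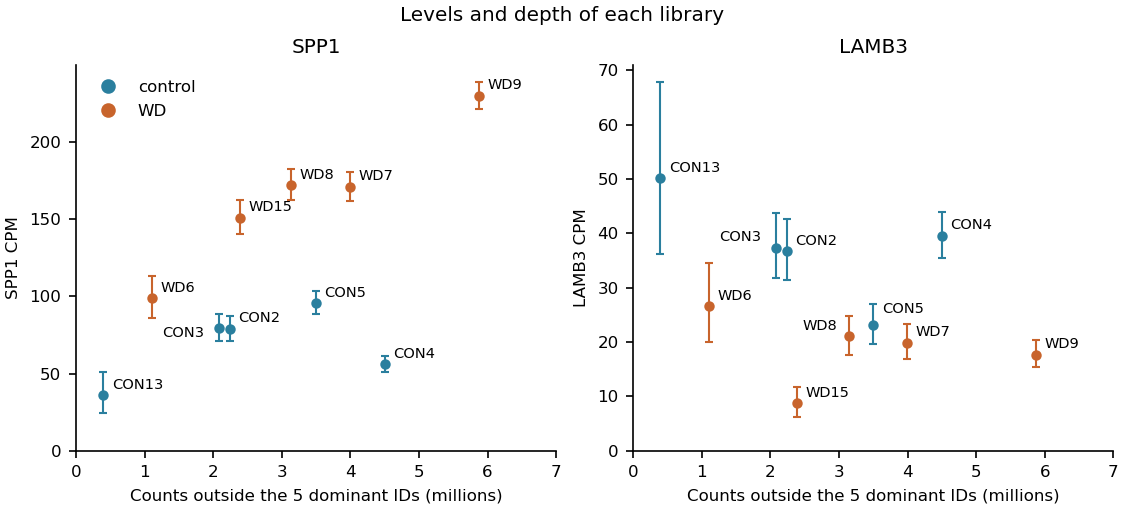
CPM of SPP1 (left) and LAMB3 (right) against the counts of each library outside the 5 dominant gene IDs, with exact Poisson 95% intervals as bars. WD6 and CON13, the shallowest libraries, had the lowest SPP1 level of their group at 98.7 and 35.9 CPM, and the highest LAMB3 level of their group at 26.6 and 50.2 CPM.

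LAMB3 is overlapped in the RefSeq assembly mCamDro1.pat by HSD11B1, which encodes a cortisone reductase, and by G0S2, TRAF3IP3 and C21H1orf74. The strand setting of the counting is not given in the sources used here, so counts of overlapping genes are uncertain. HSD11B1, the only one of these paired with an ID, had 187 counts, 3.43 ± 1.73 CPM in control and 3.32 ± 2.42 CPM in WD (SD, n = 5 each), and its log2 fold change was -0.22 (SE 0.53) with overlapping groups. SPP1 lies there beside its SIBLING relatives MEPE, IBSP and DMP1 on one side and PKD2, ABCG2 and PPM1K on the other, and none of the SIBLING relatives was paired with an ID.

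The partners of both proteins were compared with the edgeR quasi-likelihood test over all genes, called at a Benjamini-Hochberg adjusted p of at most 0.05, and with DESeq2's Wald test as an alternative. No receptor of osteopontin passed either test. Of 10 receptor genes listed, 9 were paired and 8 were tested, and 0 were called by edgeR, at an unadjusted p under 0.05, or by DESeq2, against 0.499% of all genes called by edgeR and 1.27% by DESeq2. Their log2 fold changes ran from -0.42 for ITGA8 to 0.40 for ITGAV, with a median of 0.01 beside 0.02 over all genes. ITGAV, the alpha subunit shared by the classical osteopontin receptors, had the largest positive value, 0.40 (SE 0.21, adjusted p = 0.591 by edgeR). Its partner subunits stood at -0.08 for ITGB3, 0.12 for ITGB5 and 0.15 for ITGB1, with SEs of 0.17 to 0.25. ITGB6 was counted too thinly to test, and CD44 was not paired with an ID.

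The alpha subunits that bind osteopontin together with ITGB1 gave values of similar size. ITGA4 stood at -0.05 (SE 0.49), ITGA5 at 0.06 (SE 0.33) and ITGA9 at -0.25 (SE 0.25). ITGA8 ran from 15.5 to 31.9 CPM in control and from 14.7 to 31.0 CPM in WD. All 8 receptor genes overlapped between the groups, and only 2.62% of all genes did not, so little can be read from this.

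Of 12 genes for enzymes that cleave, crosslink or phosphorylate osteopontin, 9 were paired and 6 were tested, and 0 were called by edgeR or DESeq2. MMP2, a gelatinase that also cleaves laminin-332, was the only one at an unadjusted p under 0.05, a level reached by 9.31% of all genes. Its log2 fold change was -0.59 (SE 0.21, adjusted p = 0.329 by edgeR), from 21.8 to 43.3 CPM in control and from 17.9 to 23.3 CPM in WD. The lysosomal protease CTSD and the transglutaminase TGM2, both well counted, stood at -0.03 (SE 0.18) and 0.00 (SE 0.27). The values of MMP9, F2 and PLG, with 95 to 160 counts, had SEs of 0.59 to 0.79, and MMP3, MMP7 and MMP12 were too thinly counted to test.

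The receptors of laminin-332 likewise gave no call by edgeR or DESeq2, with 4 of 6 genes tested and 0 at an unadjusted p under 0.05. ITGA6 stood at 0.08 (SE 0.21) and its partner ITGB4 at -0.29 (SE 0.25), ITGA3 at -0.19 (SE 0.22), and ITGB1 at 0.15 as given above. Among 4 tested genes for enzymes that process laminin-332, all 4 log2 fold changes were below 0 and 0 were called by edgeR or DESeq2. They were -0.49 (SE 0.31) for BMP1, -0.59 for MMP2, -0.29 (SE 0.21) for the membrane-type protease MMP14 and -0.21 (SE 0.59) for PLG.

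Among 15 basement membrane partners, 2 were paired in the table not ordered by p. COL4A1, a collagen IV chain common to basement membranes, stood at 0.32 (SE 0.21) and the proteoglycan AGRN at -0.01 (SE 0.18), and 0 were called or at an unadjusted p under 0.05. NTN4, a netrin that binds laminin, was paired only in the part of the table ordered by p, and stood at 0.68 (SE 0.28, adjusted p = 0.443 by edgeR). Over all these partner lists, with the 4 SIBLING relatives and 10 other laminin chains listed, of which none was paired in that table, there were 60 genes, of which 25 were paired in the table not ordered by p and 21 were tested, and of those tested 7 had a log2 fold change above 0, beside 51.9% of all genes. Their median was -0.08 on the log2 scale, and 1 was at an unadjusted p under 0.05, beside 9.31% of all genes. Of the 21 tested, 0 were called by edgeR, beside 0.499%, and none was without overlap between the groups, beside 2.62%.

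**Figure D4:**
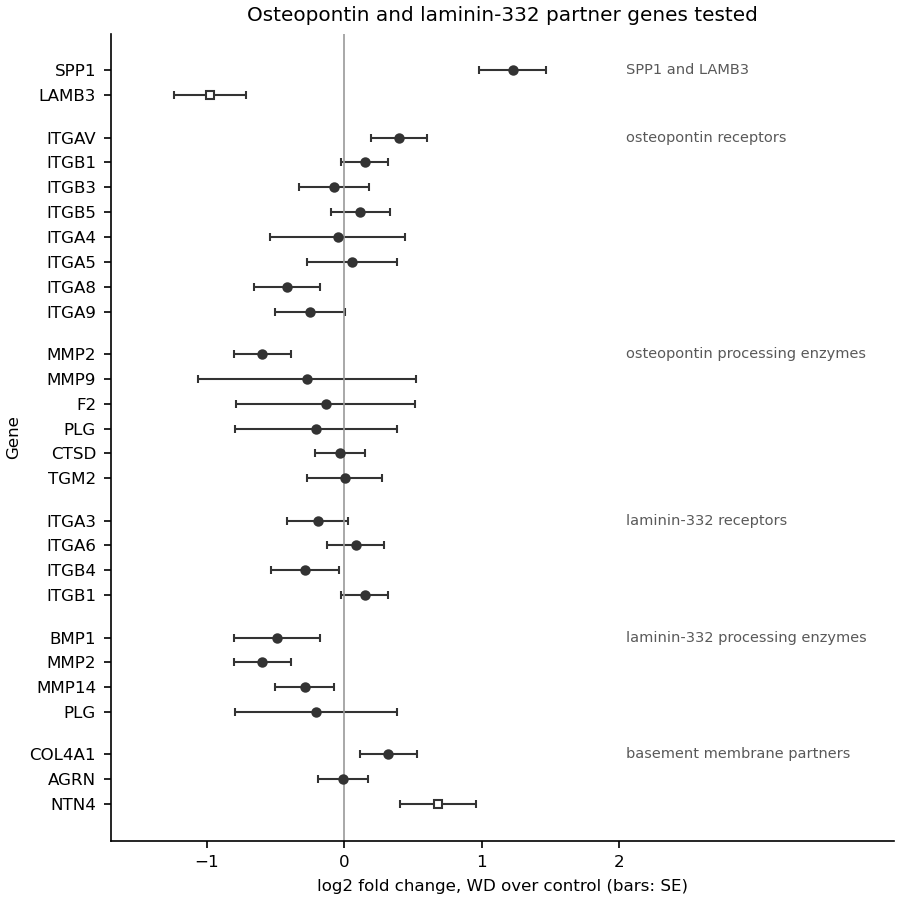
Log2 fold change of WD over control (points) with SE (bars) for SPP1, LAMB3 and the tested genes of each partner list, with open squares for genes paired only in the table ordered by p. The partners ran from -0.59 to 0.68, while SPP1 at 1.23 and LAMB3 at -0.98 were themselves chosen on this contrast, and MMP2, PLG and ITGB1 appear under each list they belong to.

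The lists of other integrin subunits and other matrix genes, which do not hold the collagens given below as fibroblast markers, also had 0 genes called by edgeR. Of 11 other integrin subunits tested, the largest values were 0.96 (SE 0.36) for ITGB2 and 0.90 (SE 0.32) for ITGAM, which form the complement receptor of microglia, and the smallest was -0.91 (SE 0.47) for ITGA2. These first-named genes were the 2 of the list at an unadjusted p under 0.05. Of 10 other matrix genes paired in the table not ordered by p, 1 had a log2 fold change above 0, the median was -0.26, and 0 were called by edgeR or DESeq2. The smallest of these values was -0.47 (SE 0.65) for the lysyl oxidase relative LOXL2. TIMP2, an inhibitor of MMP2 named here because its groups do not overlap, was lower in every WD than in any control library, from 144 to 166 CPM in control and from 94.6 to 135 CPM in WD, at -0.39 (SE 0.15, adjusted p = 0.419 by edgeR). Among those paired only in the table ordered by p, ELN, the elastin gene, stood at -1.15 (SE 0.28), with an adjusted p of 0.0975 by edgeR and 0.0181 by DESeq2. THBS2, a thrombospondin gene of that table, went the other way, at 0.75 (SE 0.23), from 16.7 to 27.5 CPM in control and from 23.1 to 53.8 CPM in WD, with an adjusted p of 0.232 by edgeR and 0.131 by DESeq2.

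Markers of microglia, the cells best known for osteopontin in the brain, mostly lay at higher levels in WD. Of 26 markers listed, 12 were paired in the table not ordered by p, and all 12 were tested. Of these, 11 had a log2 fold change above 0, beside 51.9% of all genes, and the median was 0.78, beside 0.02. An unadjusted p under 0.05 was reached by 7, beside 9.31% of all genes, and the exception in direction was FGR, a tyrosine kinase gene, at -0.33 (SE 0.42). By edgeR 0 of the 12 were called, beside 0.499% of all genes, and by DESeq2 1 was, beside 1.27%, the lysosomal protease CTSS, at 1.01 (SE 0.24, adjusted p = 0.0857 by edgeR and 0.0200 by DESeq2). Their summed level ran from 267 to 415 CPM in control and from 323 to 975 CPM in WD, and none of the markers was at 0 in any library. WD7 and WD9, at 323 and 328 CPM, lay within the control range, and WD15, at 975 CPM, stood far above the next, WD8, at 520 CPM. The markers were counted in the same libraries, so their tallies are not independent.

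A further 9 microglia markers were paired only in the table ordered by p, which favours genes that moved. The complement gene C1QA, at 1.63 (SE 0.32), was called by edgeR (adjusted p = 0.0232), while C1QB, at 1.35 (SE 0.31), and C1QC, at 1.48 (SE 0.34), were called by DESeq2 (adjusted p = 0.00532 and 0.00431) and not by edgeR (adjusted p = 0.0707 and 0.0683). Genes of reactive microglia, the state in which SPP1 is a known marker, showed smaller values. Of 12 listed, 4 were tested among those paired in the table not ordered by p, with a median of 0.29 and 0 calls by edgeR or DESeq2. CTSB ran from 128 to 171 CPM in control and from 174 to 221 CPM in WD without overlap, at 0.29 (SE 0.16), and AXL stood at 0.41 (SE 0.24). CTSD stood at -0.03 (SE 0.18). IGF1, with 57 counts too thinly counted to test, had means of 2.40 CPM in control and 0.348 CPM in WD. GPNMB, paired only in the table ordered by p, had the largest value of that list, 0.61 (SE 0.22, adjusted p = 0.361 by edgeR).

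SPP1 did not rank the libraries as the microglia markers did. WD15 had the highest summed level of the 12 markers, 975 CPM, and the next to lowest SPP1 of the WD group, 151 CPM. WD9 had the highest SPP1, 230 CPM, and a marker sum of 328 CPM, close to that of CON13, 325 CPM, which had the lowest SPP1, 35.9 CPM. The log2 ratio of SPP1 to the summed counts of the 12 markers was -2.22 ± 0.64 in control and -1.60 ± 0.91 in WD (SD, n = 5 each), a difference of 0.62 with overlapping groups. Against all 21 paired markers the difference was 0.35, and against CSF1R, the receptor that maintains microglia, it was 0.74, both with overlap. The part of microglia in the SPP1 difference was not tested.

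**Figure D5:**
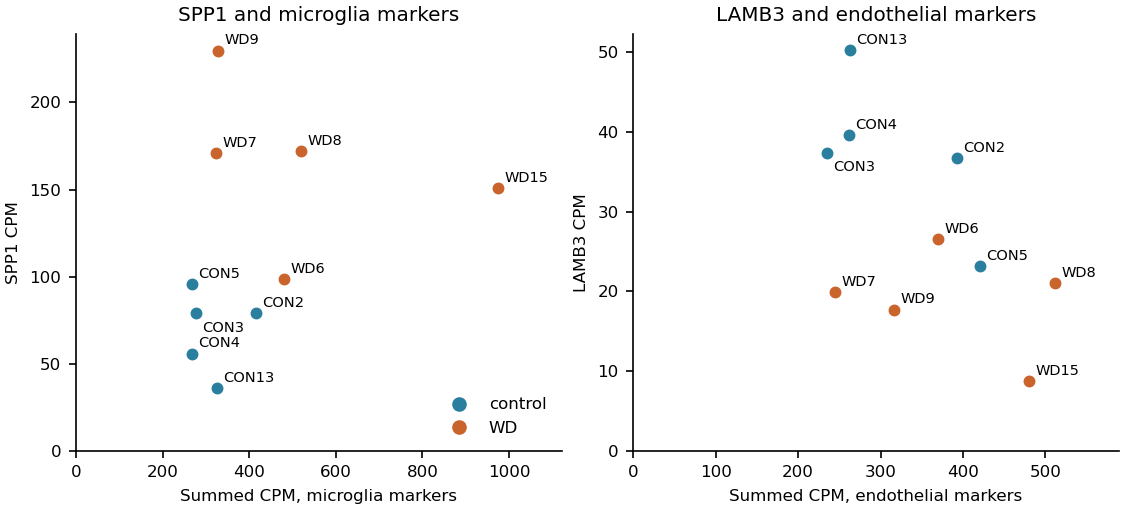
SPP1 CPM against the summed CPM of 12 microglia markers (left) and LAMB3 CPM against the summed CPM of 5 endothelial markers (right), 1 point a library. WD15 had the highest microglia sum, 975 CPM, with SPP1 at 151 CPM, whereas WD9 had the highest SPP1, 230 CPM, with a sum of 328 CPM.

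Markers of the cells that border basement membranes moved less evenly beside LAMB3. The 5 paired endothelial markers of 8 listed summed to 235 to 420 CPM in control and 245 to 512 CPM in WD. Their log2 fold changes ran from -0.06 for TEK to 0.64 for KDR, and 0 were called by edgeR or DESeq2. An unadjusted p under 0.05 by edgeR was reached by 2 of the 5, KDR and FLT1 (0.62), beside 9.31% of all genes. The log2 ratio of LAMB3 to their summed counts was -3.07 ± 0.73 in control and -4.38 ± 0.86 in WD (SD, n = 5 each), and the groups overlapped. The 3 paired fibroblast and mural markers of 7 listed summed to 103 to 134 CPM in control and 66.4 to 105 CPM in WD. Of these, COL1A1, a fibrillar collagen gene, was called lower by edgeR at -1.04 (SE 0.21, adjusted p = 0.0239), and the pericyte gene PDGFRB stood at 0.18 (SE 0.19). COL3A1 stood at -0.86 (SE 0.21) without overlap and was called by DESeq2 (adjusted p = 0.00765) but not by edgeR (adjusted p = 0.0857). The study's qRT-PCR in the rostral SON did not bear out a WD difference for COL1A1 or COL3A1.

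The epithelial markers paired were thinly counted, with 144 counts in all for TP63 and 73 for GRHL2. Of 8 listed, GRHL2 and TP63 were paired, and they summed to 1.72 to 23.9 CPM in control and 0.951 to 10.9 CPM in WD, with the highest value of each group in its shallowest library, CON13, where 1 count was worth 1.20 CPM, and WD6, where it was worth 0.475 CPM. CON13 and WD6 also had the highest LAMB3 level of their groups, at 50.2 and 26.6 CPM. TP63 stood at -1.23 (SE 0.79, adjusted p = 0.684 by edgeR), and GRHL2 was too thinly counted to test. Markers of other cells were thinly represented, and 0 were called by edgeR or DESeq2. They were SOX10 of oligodendrocytes at -0.08 (SE 0.27), the ciliary gene FOXJ1 at 0.25 (SE 0.47) and, paired only in the table ordered by p, ALDH1L1 at 0.55 (SE 0.21) and GJA1 at 0.50 (SE 0.22) of astrocytes. The other epithelial markers listed, KRT5, KRT14, KRT8, KRT18, EPCAM and CDH1, were not paired with an ID, and no other keratin gene was looked up. The study names KRT78, a keratin gene outside this list, as the most downregulated gene of its own comparison. The part of fibroblasts, vessels and epithelium in the LAMB3 difference was not tested.

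Genes whose pattern was most like that of each member were ranked by Pearson r over the 10 libraries, in log2 CPM after the mean of each group was subtracted, among 8076 other genes with at least 10 counts in every library. These values are a description, since all genes share the libraries, their depth and their RNA quality. For SPP1 the highest r were 0.94 for ENSCDRG00005007736, 0.92 for TEAD1, a transcription factor of the Hippo pathway, 0.92 for the receptor phosphatase gene PTPRK, 0.92 for ENSCDRG00005005986 and 0.91 for ENSCDRG00005016524. Without CON13 and WD6 they fell to between 0.64 and 0.81, and the 95th percentile of r over all 8076 genes was as high as 0.71. The log2 fold changes of these 5 genes ran from -0.18 to 0.28.

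For LAMB3 the highest r were 0.95 for ENSCDRG00005006279, 0.92 each for ENSCDRG00005003174 and ENSCDRG00005002628, 0.91 for ENSCDRG00005012023 and 0.90 for ENSCDRG00005015482. They stayed between 0.85 and 0.93 without CON13 and WD6. ENSCDRG00005012023, for which no symbol was paired, was also lower in WD, at -1.71 on the log2 scale (adjusted p = 0.0228 by edgeR). SPP1 and LAMB3 themselves gave r = -0.51 over the 10 libraries and r = -0.06 without CON13 and WD6.

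Within groups, SPP1 was not alike to the microglia markers. For the 16 markers with enough counts, r to SPP1 ran from -0.65 to 0.31 with a median of -0.21, and without CON13 and WD6 it ran from -0.64 to 0.45 with a median of -0.39, where FGR alone was above 0. Single values moved widely between these sets of libraries, such as that of C1QA, from 0.13 to -0.64. The 6 osteopontin receptors with enough counts gave r to SPP1 from -0.60 to 0.66, and from -0.20 to 0.27 without CON13 and WD6.

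For LAMB3, the 5 endothelial markers gave r from -0.61 to -0.31, and from -0.65 to -0.36 without CON13 and WD6. The 16 microglia markers gave r from -0.76 to 0.16 with a median of -0.41, and from -0.69 to -0.09 with a median of -0.53 without these libraries. Among laminin-332 receptors, ITGA3 had r = 0.78 to LAMB3, and 0.70 without CON13 and WD6, while ITGB4 had 0.46 and 0.16, ITGA6 -0.49 and -0.21, and ITGB1 -0.21 and 0.36. Over all 8076 genes, the 5th to 95th percentile of r was -0.71 to 0.71 for SPP1 and -0.60 to 0.63 for LAMB3. Of the genes of the lists compared, ITGB4 (-0.75) lay outside that range for SPP1, and ITGA3, IRF8 (-0.76), CX3CR1 (-0.73), GJA1 (-0.62), ITGAV (-0.62), ITGB5 (-0.61), KDR (-0.61) and C1QA (-0.60) for LAMB3.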

How the data were processed

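RNA-seq counts of 5 control and 5 WD libraries were used. The authors aligned reads to Camdro2 with STAR and deposited counts per gene from FeatureCounts, whole numbers without normalization. The authors' normalized table was not used. Control and WD were compared with edgeR 4.0.16 (R 4.3.3; quasi-likelihood F test, robust, TMM, filterByExpr by group, Benjamini-Hochberg over 14432 genes, called at an adjusted p of at most 0.05), and DESeq2 1.42.0 was an alternative. The SE is the log2 fold change divided by the square root of F. The labels give no batch, and p-values measure the spread between these animals. The edgeR step was tested on simulated counts.

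Symbols came from the study's gene tables, which pair 4351 of 22444 IDs. One table, ordered by p, is held in part (1510 IDs with a symbol) and favours genes that moved, so list counts use the other table. LAMB3 was paired only in the former. Some results on laminin genes are not reported here. The members, gene lists and tests were chosen with earlier results of these data known. Genes named are the members, the called, largest and smallest genes of each list, the integrins that bind either protein, and the 5 genes most alike to each member. TIMP2, CTSB and some other list genes were named after their values were seen. Ratios used a pseudocount of 0.5, and log2 CPM for likeness a prior count of 2. No genome of Camdro2 was used, so no sequence or coordinate is given.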

Additional observations from a re-analysis of the deposited data

Results flagged for a closer look

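In 4 of the 58 groups of 5 libraries checked, over the members, their tested partner genes and the 5 count ratios, 1 library stood apart from the other 4 by more than Dixon's 95% critical value, and chance alone gives about 1 in 20 such groups. F2, the thrombin gene, was at 8.54 CPM in WD6 and at 1.67 to 2.55 CPM in the other WD libraries. PLG, the plasminogen gene, was at 10.8 CPM in CON13 and at 1.76 to 2.99 CPM in the other controls. MMP9 was at 8.37 CPM in CON13 and at 0.344 to 2.60 CPM in the other controls. WD6 and CON13 are the shallowest libraries of their groups, where 1 count is worth 0.475 and 1.20 CPM, and the part of depth was not tested. ITGA8, an integrin subunit that binds osteopontin, was at 31.0 CPM in WD8 and at 14.7 to 19.2 CPM in the other WD libraries. SPP1 and LAMB3 had no such library in either group.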

How the results depend on the processing

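SPP1 stayed higher and LAMB3 lower in WD under all 19 alternatives. Leaving out 1 library at a time gave log2 fold changes of 1.07 (without WD9) to 1.37 (without CON5) for SPP1 and of -1.12 (without CON5) to -0.79 (without WD15) for LAMB3. The other settings gave 1.05 to 1.43 and -1.02 to -0.84, the largest for SPP1 and the smallest for LAMB3 with library totals only, which moved the median of all genes from 0.02 to 0.16. The difference in their log2 ratio was 1.98 (without CON13) to 2.63 (without WD6). Genes called of all tested were 72, but 209 by DESeq2, 10 with library totals only, 155 with depth as a covariate (added after the data were seen), and 40 (without CON3) to 102 (without WD6) with a library left out, with 42 without CON5. With the RNA integrity number (RIN) as a covariate, log2 fold changes were 1.28 for SPP1 and -0.94 for LAMB3, and 104 genes were called. Partner genes called were 0 under all 20 alternatives. Of the 12 microglia markers paired in the table not ordered by p, 0 were called, but 1 by DESeq2 and 1 with depth as a covariate, CTSS in both. Of those paired only in the table ordered by p, C1QA was called in all 3 of these fits, and C1QB and C1QC by DESeq2 and with depth as a covariate. ELN and COL3A1 were likewise called by DESeq2 and, with depth as a covariate, by edgeR (adjusted p = 0.0482 and 0.0391), but not in the main fit. The cause of these differences was not tested. No paired analysis was possible because the groups share no replicate number. Depth limits genes with few counts most in CON13 and WD6.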
